A study of Mus musculus with 4 samples.

Results

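Genes of tumour necrosis factor (TNF) superfamily costimulation, other than OX40 and its ligand, were followed across single-cell libraries of CD8 T cells. They were chosen by name, 7 of the 32285 features in the files: the receptor genes Tnfrsf9, Tnfrsf18, Cd27 and Tnfrsf1b, the ligand genes Tnfsf8 and Tnfsf11, and Traf1, which encodes an adaptor and not a superfamily member. All 7 were found in each of the 4 libraries, and all 7 passed the filter on low counts. These 7 and the wider gene lists were chosen with earlier results of these data known. Each count of called genes below is therefore a description and no test of the set. The cells were CD8+ T cells sorted for CD44 and CD90.1, taken from lymph nodes that drain a tumour in C57BL/6 mice, 14 days after it was implanted. CD44 is borne by antigen-experienced T cells, and CD90.1 is a form of Thy1 that C57BL/6 mice lack. The M9 group is labelled high affinity for GP33, a viral peptide, and the C6M9 group low affinity; the labels do not name the tumour line or explain the 2 group names. The cells came from 10 mice for M9 and 35 for C6M9. Each group had 2 libraries, called biological duplicates, with no statement of how mice were divided between them, so each spread and p-value below may reflect technical spread alone. The library was the replicate throughout (n = 2 per group).

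TNF receptors of this kind sit on T cells and add a survival and growth signal to that of the T cell receptor (TCR). A trimeric ligand clusters the receptor, the receptor tail recruits TRAF proteins, and these switch on NF-kB. TNF receptor genes such as Tnfrsf9 are known to be switched on by TCR signalling, while Cd27 is already expressed by resting T cells. In CD8 T cells their signals are known for sustaining clonal expansion and memory.

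The deposited matrices held 11113 cell barcodes, and 9923 T cells were kept, between 1199 and 4101 in a library. The libraries held 33680632 to 79174627 unique molecular identifiers (UMIs, the count of distinct RNA molecules captured), and T cells had medians of 13205 to 21476 UMIs. No more than 4 barcodes were shared by any pair of libraries. Cd8b1, a CD8 chain gene, stood at 926 to 1140 CPM (UMIs per 1000000 UMIs of a library, TMM-scaled) and Cd3e, a TCR complex gene, at 618 to 776 CPM, against 1.08 to 3.16 CPM for Cd4. The sort marker gene Cd44 was present in each library, at 66.0 to 94.4 CPM.

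Of the 7 genes, 4 lie on chromosome 4 (GRCm38, GENCODE release M21). Tnfsf8 is at 63831308 to 63861347 and Tnfrsf1b at 145213463 to 145246870, both on the minus strand. Tnfrsf9 is at 150914562 to 150946102 and Tnfrsf18 at 156026164 to 156028895, both on the plus strand. Tnfsf11 lies on chromosome 14 at 78277445 to 78308043, Cd27 on chromosome 6 at 125232622 to 125237010 and Traf1 on chromosome 2 at 34941750 to 34961772, all on the minus strand. Tnfrsf18 follows Tnfrsf4, the OX40 gene, by 9551 bases on the same strand, and Tnfrsf1b is 20.3 kb from Tnfrsf8, the gene of the Tnfsf8 receptor. Tnfrsf9 overlaps Camta1, Tnfrsf18 the antisense gene Gm16008 and Cd27 the gene Vamp1, each on the opposite strand. Whether the counting used strand is not given in the sources used here, so UMIs of such pairs could be exchanged.

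The 250 bases before the start sites of the 4 genes with the largest group differences are shown, from RefSeq on GRCm38.p6, 5′ to 3′ on the gene's strand. Capitals mark the NF-kB consensus and the AP-1 motif TGANTCA, the sites of factors known to act downstream of TNF receptors and the TCR.
Tnfrsf9 start site 1, chr4:150919905-150920154, plus strand: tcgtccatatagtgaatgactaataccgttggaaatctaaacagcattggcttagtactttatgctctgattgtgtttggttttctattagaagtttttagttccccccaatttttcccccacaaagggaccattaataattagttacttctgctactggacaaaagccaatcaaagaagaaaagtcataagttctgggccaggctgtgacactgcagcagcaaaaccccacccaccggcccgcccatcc
Tnfrsf9 start site 2, chr4:150927749-150927998, plus strand: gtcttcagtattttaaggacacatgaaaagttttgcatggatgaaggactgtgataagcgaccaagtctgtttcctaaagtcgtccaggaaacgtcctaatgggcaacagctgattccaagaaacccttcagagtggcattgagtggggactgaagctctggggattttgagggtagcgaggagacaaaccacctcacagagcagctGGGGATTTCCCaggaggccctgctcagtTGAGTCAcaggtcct
Tnfrsf18, chr4:156026072-156026321, plus strand: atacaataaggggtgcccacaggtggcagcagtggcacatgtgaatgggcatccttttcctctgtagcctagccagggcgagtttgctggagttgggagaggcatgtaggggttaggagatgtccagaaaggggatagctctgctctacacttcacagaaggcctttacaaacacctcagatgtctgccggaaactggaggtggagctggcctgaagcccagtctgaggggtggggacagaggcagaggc
Tnfsf8, chr4:63861285-63861534, minus strand: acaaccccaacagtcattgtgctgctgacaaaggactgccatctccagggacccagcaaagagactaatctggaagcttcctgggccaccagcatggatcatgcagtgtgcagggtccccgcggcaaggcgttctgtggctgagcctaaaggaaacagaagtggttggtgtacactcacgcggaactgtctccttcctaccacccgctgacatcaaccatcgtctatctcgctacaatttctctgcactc
Tnfsf11, chr14:78308044-78308293, minus strand: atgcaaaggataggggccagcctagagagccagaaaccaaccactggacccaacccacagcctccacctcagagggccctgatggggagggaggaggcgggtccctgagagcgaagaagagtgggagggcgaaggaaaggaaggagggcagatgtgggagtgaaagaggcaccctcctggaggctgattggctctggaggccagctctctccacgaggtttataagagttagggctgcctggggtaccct
All 7 genes matched the promoter table, with 8 start sites, and both strands were searched. The second start site of Tnfrsf9 was the only one of the 8 with either motif: overlapping NF-kB matches lay 43 to 33 bases before it and a TGANTCA match 15 to 9 bases before it. Of 32851 promoters of this length, 7.25% held the NF-kB consensus and 6.75% held TGANTCA. None of the 8 held GCGNGGGCG, the EGR motif (4.70% of all promoters), or AAAGGTCA, the NR4A motif (1.34%). The NFAT core GGAAAA stood in 1 window each of Tnfrsf9 (the first start site), Tnfrsf18, Cd27 and Traf1, and in 20.4% of all promoters. These matches are descriptions of the letters in these windows and show no binding.

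The first comparison asked how the genes differed between C6M9 and M9 over all T cells. Tnfrsf9, Tnfsf8 and Tnfsf11 fell in C6M9, and Tnfsf11 fell furthest, to about 2.5 CPM. Cd27 differed little, and Tnfrsf18, Tnfrsf1b and Traf1 did not pass the test. These are 3 of 7 genes that fell and none that rose, where 4.04% of the 13654 genes tested fell and 1.59% rose (edgeR quasi-likelihood test, Benjamini-Hochberg adjusted p under 0.05). Since the 7 were chosen with earlier results known, the count is a description. Fewer cells that express a gene and less RNA in each such cell cannot be told apart in these sums.

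Tnfrsf9 encodes 4-1BB, a receptor that recently activated CD8 T cells display. It stood at 57.1 and 36.8 CPM in M9 and at 20.2 and 24.3 CPM in C6M9. Both M9 libraries were above both C6M9 libraries, and the M9 pair lay further apart than the C6M9 pair. The log2 difference was -1.09 ± 0.19 (SE, adjusted p = 0.0213, edgeR); leaving out M9 replicate 1 gave -0.70, and leaving out C6M9 replicate 1 gave -0.95, no longer called (adjusted p = 0.0607, edgeR).

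Tnfrsf18 encodes GITR, a receptor held at high level by regulatory T cells and raised in activated CD8 T cells. Its level was 85.9 and 56.9 CPM in M9 and 42.7 and 45.4 CPM in C6M9. The groups did not overlap, but the gap between the M9 libraries was wider than that between the lower of them and C6M9. The difference of -0.70 ± 0.17 on the log2 scale missed the threshold (SE, adjusted p = 0.0565, edgeR); it was called at -0.34 without M9 replicate 1 and at -0.96 without M9 replicate 2 (adjusted p = 0.0438 and 1.98e-04, edgeR).

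Cd27, the receptor for CD70 on naive and memory T cells, was at 250 and 241 CPM in M9 and at 250 and 256 CPM in C6M9. Its 4 libraries were within a narrow range, and the log2 difference was 0.04 ± 0.08 (SE, adjusted p = 0.794, edgeR). Tnfrsf1b encodes TNF receptor 2, the TNF receptor that lacks a death domain. It read 23.5 and 22.7 CPM in M9 and 18.6 and 18.6 CPM in C6M9. Each pair was tight and M9 was higher, yet the log2 difference of -0.31 ± 0.09 was not called (SE, adjusted p = 0.0778, edgeR).

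Of the ligands, Tnfsf8 encodes CD30 ligand. Its M9 libraries were at 83.8 and 63.7 CPM and its C6M9 libraries at 41.4 and 38.4 CPM, with no overlap. The gene fell by 0.89 on the log2 scale (SE 0.13, adjusted p = 0.0104, edgeR). Tnfsf11 encodes RANKL, the ligand of RANK, known for driving osteoclasts and lymph node growth and also made by activated T cells. It had 12.7 and 9.36 CPM in M9 and 2.72 and 2.41 CPM in C6M9. That is 4.34-fold higher in M9, a log2 difference of -2.12 ± 0.17 (SE, adjusted p = 0.00109, edgeR), and both of these ligand calls held without each library in turn. Traf1, the adaptor that binds 4-1BB, TNF receptor 2 and other receptors together with TRAF2, was at 212 and 169 CPM in M9 and 153 and 169 CPM in C6M9. M9 replicate 2 lay just under C6M9 replicate 2, so the groups overlapped, and the difference of -0.24 ± 0.12 was not called (SE, adjusted p = 0.27, edgeR), though it was at -0.39 without M9 replicate 2 (adjusted p = 0.0334, edgeR).

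**Figure D1:**
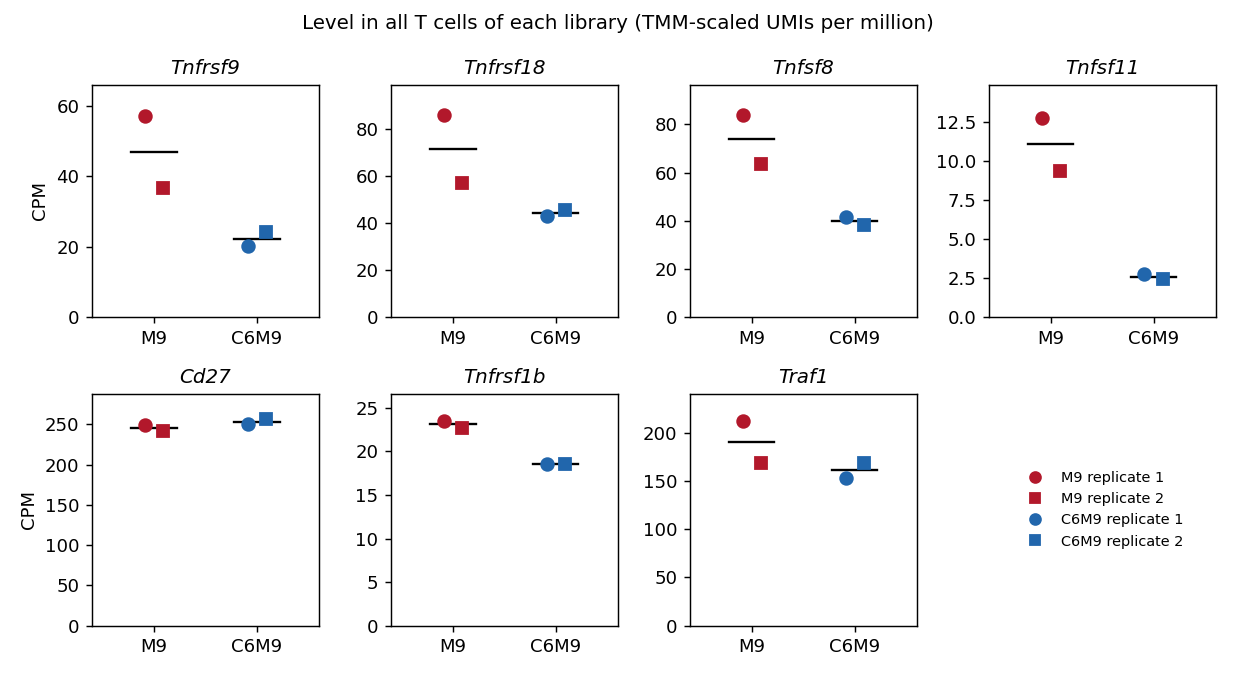
Level of each gene over all T cells of each library, in TMM-scaled CPM (y axis from 0), with M9 in red, C6M9 in blue, replicate 1 as circles, replicate 2 as squares and the group mean as a line. Tnfrsf9, Tnfsf8 and Tnfsf11 are lower in both C6M9 libraries, while Cd27 sits between 241 and 256 CPM in all 4.

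T cells were next divided into classes by clusters made without the TNF superfamily and TRAF genes, so the 7 genes had no part in forming them. A class is named where at least 3 of its 10 leading genes are markers of a set, a minimum chosen after the clusters were seen. In all, 6 classes had at least 50 cells in each library. The TCR-activated-like class (led by Cd83, Egr3, Xcl1 and Nr4a3) held 963 and 194 cells in M9 and 116 and 97 in C6M9. The others were interferon-like (Ifit3, Rsad2), effector-like (Klre1, Klrc2, Zeb2) and cycling-like cells (Ccnb2, Top2a), cluster 0 (Kcnc1, Gzmk, Izumo1r, Cxcr5) and cluster 2 (Ccr10, S100a4, Ccl5). Clusters 4 and 9 (the latter led by Gzma and Gzmb) had 35 and 12 cells in M9 replicate 2, too few for a test. They are kept in the order of levels, in CPM without TMM. Levels by class are descriptions, since other genes of the same cells formed the classes.

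Tnfrsf9 stood apart in the TCR-activated-like class of each library. There it was at 121 and 102 CPM in M9 and at 103 and 98.8 CPM in C6M9. In the other tested classes it ranged from 8.56 CPM (cluster 2, C6M9 replicate 1) to 40.6 CPM (cluster 0, M9 replicate 1). Over all 8 classes cluster 9 came second in each library, at 48.0 and 47.1 CPM in M9 and 29.6 and 28.6 CPM in C6M9 without TMM. The TCR-activated-like class was 2.24 to 3.41 times cluster 9. The order of the other classes changed from library to library, so they are not ranked. The class also gave 54.3 and 47.3% of all Tnfrsf9 UMIs in M9 T cells and 25.4 and 28.8% in C6M9, with 25.7 and 17.4% of all T cell UMIs in M9 and 4.99 and 7.01% in C6M9.

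Tnfrsf18 and Tnfsf8 were highest in the TCR-activated-like class of both M9 libraries. For Tnfrsf18 that class was at 160 and 116 CPM in M9, followed by effector-like cells at 89.8 and 68.2 CPM. In C6M9 effector-like cells came first, at 77.9 and 76.2 CPM, and the TCR-activated-like class was at 64.9 and 61.8 CPM. For Tnfsf8 the interferon-like class came next to the TCR-activated-like class in M9, at 86.4 and 83.5 CPM. In C6M9 these 2 classes were close and their order differed between the libraries, and cluster 4 was above both in C6M9 replicate 2, at 57.9 CPM. Cluster 9 was the lowest of the 8 classes for both genes in all 4 libraries, at 30.6 to 39.0 CPM for Tnfrsf18 and 8.24 to 19.8 CPM for Tnfsf8.

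Cd27 and Traf1 were lowest in cluster 9 of all 4 libraries, at 83.5 to 128 CPM for Cd27 and 77.7 to 107 CPM for Traf1. The highest of the 8 classes was 2.32 to 4.05 times cluster 9 for Cd27 and 2.37 to 3.19 times for Traf1. Among the 6 tested classes alone the highest was 1.44 to 1.80 times the lowest for Cd27 and 1.65 to 2.20 times for Traf1, and cycling-like cells were lowest for Traf1 in all 4 libraries. Tnfrsf1b was highest in effector-like cells in 3 of 4 libraries, at 33.7 CPM in M9 replicate 1 and 25.7 and 28.9 CPM in C6M9. TCR-activated-like cells came first for Tnfrsf1b in M9 replicate 2, at 32.3 CPM against 23.3 CPM in effector-like cells. Tnfsf11 was highest in TCR-activated-like cells in both M9 libraries and in C6M9 replicate 1.

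**Figure D2:**
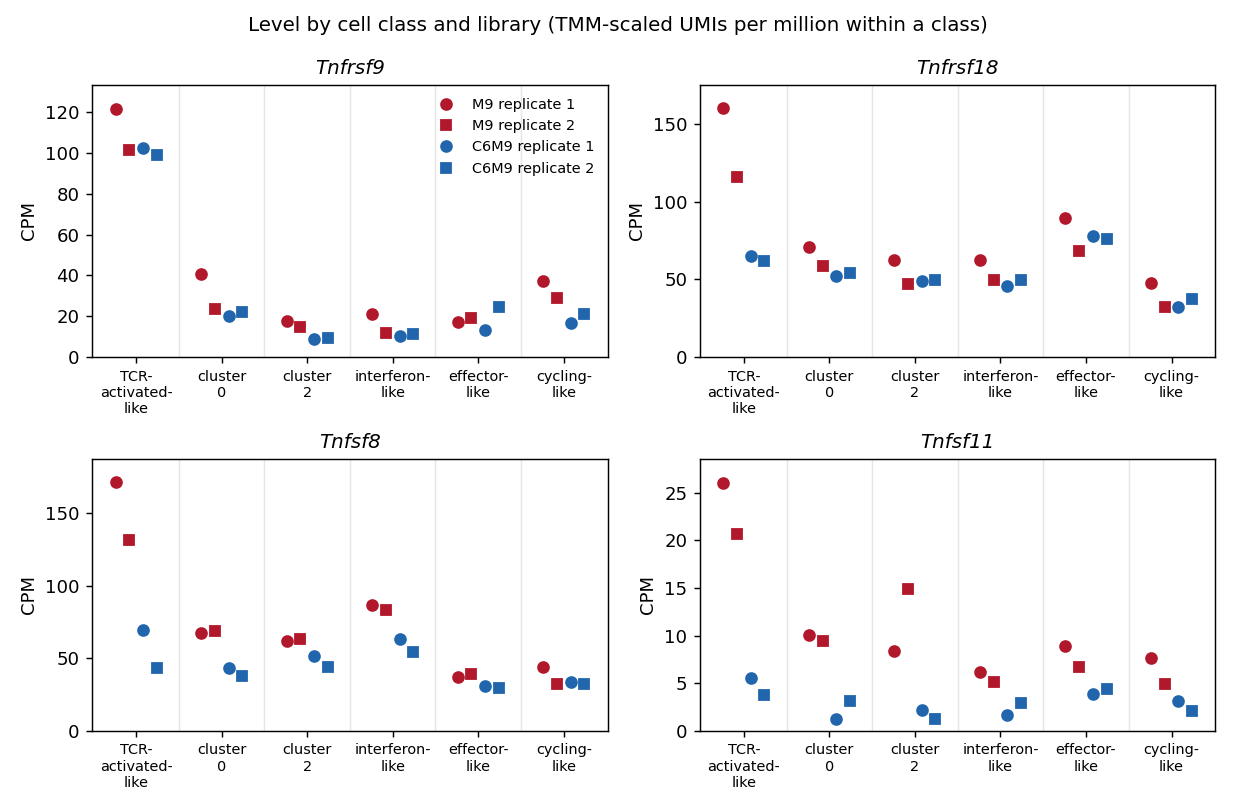
Level of Tnfrsf9, Tnfrsf18, Tnfsf8 and Tnfsf11 (CPM, y axis from 0) in each tested class of each library, with M9 in red, C6M9 in blue, replicate 1 as circles and replicate 2 as squares. In the TCR-activated-like class all 4 libraries lie between 98.8 and 121 CPM for Tnfrsf9, whereas the M9 libraries lie above the C6M9 libraries for the other 3 genes.

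Within the TCR-activated-like class the groups were then compared. Tnfrsf18, Tnfsf8, Tnfsf11, Tnfrsf1b and Traf1 fell in C6M9, and Tnfrsf9 and Cd27 were not called. That is 5 of 7 genes, where 9.27% of 10165 genes fell, again a description for genes chosen with earlier results known. Tnfrsf18 fell by 1.14 on the log2 scale (SE 0.14, adjusted p = 3.92e-05, edgeR), from the levels given above and with no overlap of the groups.

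Tnfsf8 was at 172 and 131 CPM in M9 and at 69.5 and 43.5 CPM in C6M9 within this class. It fell by 1.45 (log2, SE 0.17, adjusted p = 2.18e-05, edgeR). Tnfsf11 had 26.0 and 20.7 CPM in M9 and 5.51 and 3.80 CPM in C6M9, the latter from 18 and 16 UMIs. Its fall of 2.38 (log2, SE 0.24, adjusted p = 5.55e-06, edgeR) was the widest of the 7 in this class, and these 3 calls held without each library in turn.

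Tnfrsf1b was at 29.8 and 32.3 CPM in M9 and 20.2 and 20.0 CPM in C6M9, a log2 difference of -0.62 ± 0.16 (SE, adjusted p = 0.00998, edgeR). The call was lost without C6M9 replicate 2 (adjusted p = 0.0637, edgeR) and with DESeq2 (adjusted p = 0.116). Traf1 was at 247 and 188 CPM in M9 and at 157 and 156 CPM in C6M9, a log2 difference of -0.48 ± 0.12 (SE, adjusted p = 0.0109, edgeR). It was not called without M9 replicate 1, at -0.26, or without C6M9 replicate 2, at -0.46 (adjusted p = 0.132 and 0.0575, edgeR). Tnfrsf9 differed by -0.16 ± 0.12 (SE, adjusted p = 0.385, edgeR) with overlapping groups, and Cd27 by -0.04 ± 0.11.

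The TCR-activated-like class was not equal in its own markers between the groups. Of its 17 set markers 11 fell and 2 rose within the class, and their summed level was 1428 and 1226 CPM in M9 against 1006 and 931 CPM in C6M9. Egr2, a TCR-induced transcription factor gene named after its values were seen, fell by 1.53 there (log2, adjusted p = 9.08e-06, edgeR). Among only those cells of the class with a UMI of Nr4a1, Egr1, Egr2 or Egr3, a choice made after seeing the data, the same 5 genes fell. In those cells Tnfrsf9 differed by -0.20, Tnfrsf18 by -1.13, Tnfsf8 by -1.51 and Tnfsf11 by -2.17. At Leiden resolution 1.0 a cluster led by Egr3 and Cd83 held 636 and 138 cells in M9 and 34 and 39 in C6M9. Another, led by Xcl1 and Srm, held 187 and 39 in M9 and 68 and 67 in C6M9. The class may thus hold a different mix of states in each group. What part the marker levels or such a mix had in these differences was not tested.

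Genes listed as markers of CD4 and regulatory T cells moved within the class too. Of 8 such markers 7 were tested and Cd4, Izumo1r, Ctla4 and Ikzf2 fell, with sums of 521 and 539 CPM in M9 and 209 and 252 CPM in C6M9. Cd4 was a small part of these sums, and Foxp3 ran from 0 to 3.55 CPM without TMM in a library. Izumo1r was also a leading gene of cluster 0. Cd4 was at 7.62 and 7.35 CPM in M9 and 0.92 and 0.71 CPM in C6M9, 9.20-fold higher in M9 (adjusted p = 1.03e-04, edgeR). A Cd4 or Foxp3 UMI was held by 64 and 14 M9 cells of the class, against 1 and 3 C6M9 cells. Without them, a choice made after seeing the data, the same 5 genes fell: Tnfrsf18 by 1.14, Tnfsf8 by 1.35, Tnfsf11 by 2.25, Tnfrsf1b by 0.62 and Traf1 by 0.47 on the log2 scale. Tnfrsf9 was at -0.20 and not called.

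Outside this class fewer genes were called. In cluster 0 Tnfsf8 (-0.74 ± 0.15, SE, adjusted p = 0.0305, edgeR) and Tnfsf11 (-2.20 ± 0.44, adjusted p = 0.0311) fell, 2 of 7 genes where 0.349% of all genes tested fell. Tnfsf11 had 10.1 and 9.42 CPM in M9 and 1.18 and 3.11 CPM in C6M9 there, and it was not called without C6M9 replicate 1 (-1.65). The Tnfsf8 call in cluster 0 was lost without C6M9 replicate 1 (adjusted p = 0.0542, edgeR) and without C6M9 replicate 2 (adjusted p = 0.161, edgeR).

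In cluster 2 Tnfsf11 fell (-2.62 ± 0.39, SE, adjusted p = 0.0020, edgeR), from 8.40 and 14.9 CPM to 2.17 and 1.20 CPM, where 0.752% of all genes fell. It was not called without M9 replicate 1 (adjusted p = 0.0518, edgeR) or without M9 replicate 2 (adjusted p = 0.0736, edgeR). In cycling-like cells Tnfrsf9 fell (-0.82 ± 0.16, SE, adjusted p = 0.0394, edgeR), from 37.4 and 29.0 CPM to 16.5 and 21.2 CPM, where 0.522% of all genes fell. That call held without M9 replicate 2 but not without M9 replicate 1, C6M9 replicate 1 or C6M9 replicate 2 (adjusted p of 0.101, 0.189 and 0.0814, edgeR). In interferon-like cells Tnfsf8 fell (-0.54 ± 0.11, SE, adjusted p = 0.0278, edgeR), from 86.4 and 83.5 CPM to 63.0 and 54.0 CPM, where 1.36% of all genes fell. It was not called without C6M9 replicate 1 (-0.66) or C6M9 replicate 2 (-0.43). No gene of the 7 was called in effector-like cells, where 0.312% of all genes fell (edgeR). There 2 of the 7, Tnfsf8 and Tnfsf11, had an unadjusted p under 0.05, and DESeq2 called 0. Of all genes 1281 of 9948 had such a p, and DESeq2 called 26 of 15671.

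**Figure D3:**
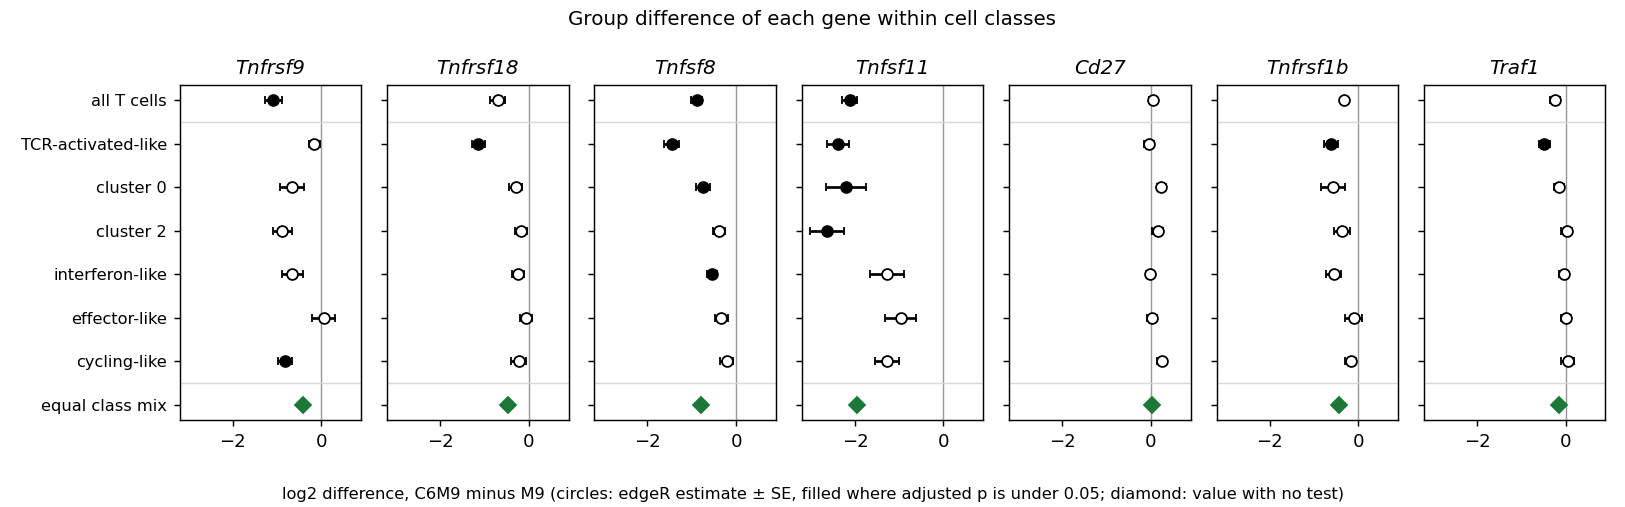
Group difference of each gene on the log2 scale (C6M9 minus M9, x axis) over all T cells and within each class, as edgeR estimates ± SE with filled circles where the adjusted p is under 0.05; the diamond is the difference with each class weighted equally, a value with no test. Tnfrsf18 and Tnfsf8 lie furthest left in the TCR-activated-like class, and Tnfrsf9 lies near 0 there.

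Whether the group difference varied between classes was tested directly, in 1 edgeR fit over the 24 sums of 6 classes and 4 libraries. It varied for 5 of the 7 genes, where 17.5% of 11151 genes did. For Tnfrsf18 (adjusted p = 5.57e-07) the class differences ran from -1.14 in TCR-activated-like cells to -0.06 in effector-like cells, and for Tnfsf8 (adjusted p = 5.35e-06) from -1.45 in TCR-activated-like to -0.21 in cycling-like cells. For Tnfrsf9 (adjusted p = 0.00282, edgeR) they ran from -0.88 in cluster 2 to 0.06 in effector-like cells, with -0.16 in TCR-activated-like cells. Traf1 (adjusted p = 0.0025, edgeR) was lowest in TCR-activated-like cells at -0.48. Tnfsf11 (adjusted p = 0.0408, edgeR) ran from -2.62 in cluster 2 to -0.96 in effector-like cells. Cd27 and Tnfrsf1b were not called (adjusted p = 0.086 and 0.424, edgeR).

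Not all of these held without each library. The Tnfrsf9 call was lost without M9 replicate 1 (adjusted p = 0.206, edgeR) and the Traf1 call without C6M9 replicate 2 (adjusted p = 0.102, edgeR). The Tnfsf11 call was lost without M9 replicate 2, C6M9 replicate 1 or C6M9 replicate 2 (adjusted p of 0.242, 0.0758 and 0.22, edgeR). Those of Tnfrsf18 and Tnfsf8 held without each library in turn, and Cd27 was called without C6M9 replicate 1 (adjusted p = 0.0409, edgeR).

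Since the libraries held the classes in different proportions, the differences over all T cells were also computed with the 6 classes weighted equally. Tnfrsf9 moved from -1.09 to -0.40, the widest shift of the 7, with 42.4 and 34.7 CPM (without TMM) in M9 and 27.6 and 30.6 in C6M9. Tnfsf11 was at -1.94, Tnfsf8 at -0.79, Tnfrsf18 at -0.47, Tnfrsf1b at -0.43, Traf1 at -0.16 and Cd27 at 0.04. With TCR-activated-like cells left out instead, Tnfsf11 (-1.65) and Tnfsf8 (-0.41) were still called. Tnfrsf9 (-0.77, adjusted p = 0.0606, edgeR) and Tnfrsf18 (-0.30, adjusted p = 0.258, edgeR) were not.

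Detection per cell was compared after each T cell was thinned to 2000 UMIs, which left out 2 to 9 shallower cells in a library. Tnfsf11 was seen in 2.27 and 1.93% of T cells in M9 and in 0.173 and 0.174% in C6M9, the latter from 5 and 3 cells. Tnfrsf9 was seen in 8.33 and 5.36% in M9 and 3.50 and 3.88% in C6M9, and Tnfrsf18 in 14.98 and 13.8% and in 9.25 and 9.62%. Before thinning the group means were 15.6 and 5.11% for Tnfsf11, 34.5 and 26.2% for Tnfrsf9, and 63.1 and 58.4% for Tnfrsf18. Among 124 B cell-like cells, of median 11974.5 UMIs before thinning, the thinned shares were 0% for Tnfsf11 (0 cells, which allows up to 2.42%), 1.61% for Tnfrsf9 and 4.03% for Tnfrsf18. With 2 libraries in each group the exact permutation test (two-sided) has a smallest possible p of 0.333, so no share could pass.

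Tnfsf8 was seen in 14.2 and 14.2% of M9 T cells and 8.28 and 7.47% of C6M9 T cells, and in 8.06% of B cell-like cells, from 3 of 27 and 1 of 12 cells in M9 and 4 of 45 and 2 of 40 in C6M9. Cd27 was seen in 40.4 and 43.7% of M9 and 42.1 and 40.5% of C6M9 T cells, Traf1 in 35.9 and 31.7% and in 27.4 and 27.7%, and Tnfrsf1b in 4.84 and 5.03% and in 3.33 and 3.82%.

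Levels in B cell-like cells were also higher in M9 for Tnfsf8, Tnfsf11, Tnfrsf18 and Tnfrsf9, a difference not tested, so the pooled share is no common background. Summed over these cells, Tnfsf8 was at 97.0 and 131 CPM without TMM in M9 and 60.5 and 23.996 CPM in C6M9. Tnfsf11 was at 22.8 and 23.5 CPM in M9, from 8 and 7 UMIs, and at 5.22 and 5.14 CPM in C6M9, from 5 and 6 UMIs. Tnfrsf18 was at 88.4 and 73.8 CPM in M9 and 36.5 and 35.1 CPM in C6M9. Tnfrsf9 averaged 18.6 CPM in M9 (SD 2.13) and 10.1 CPM in C6M9 (SD 3.40), against 48.0 and 21.6 CPM in all T cells without TMM. Traf1 averaged 197 CPM in M9 (SD 32.0) and 151 CPM in C6M9 (SD 44.3). Cd27 (213 against 234 CPM) and Tnfrsf1b (21.5 against 32.2 CPM) were lower in M9. For Tnfsf8 and Tnfrsf18 the M9 levels of B cell-like cells were thus in the range of M9 T cells or above it, and for Tnfsf11 they were above it. No T cell share of Tnfsf8, Tnfrsf18 or Tnfsf11 is read as expression beyond background from these shares. The part of what gives B cell-like cells these UMIs in the T cell results was not tested.

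Within the TCR-activated-like class Tnfrsf9 was seen in 18.6 and 19.7% of M9 cells and 20.7 and 26.8% of C6M9 cells. Tnfsf8 was seen in 26.9 and 30.1% of M9 cells and 15.5 and 15.5% of C6M9 cells of the class. Tnfsf11 was seen in 4.16 and 4.66% of M9 cells of the class and in 0 of 116 and 0 of 97 C6M9 cells, which at 2000 UMIs per cell allow shares of up to 2.59 and 3.09%. Those limits hold for cells with a UMI at that depth only: before thinning 28.3 and 32.5% of M9 cells and 11.2 and 10.3% of C6M9 cells of the class had a Tnfsf11 UMI. Cells of any class with at least 4 of the 7 genes were 1.56 and 1.68% of M9 T cells and 0.277 and 0.174% of C6M9 T cells.

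The genes most like each of the 7 were named by Pearson's r of log2 CPM (without TMM) over the 24 class and library sums, among 7367 genes. The points share libraries and classes, so r is a description. Tnfrsf9 was most like Npepl1 (0.94), Pdcd1lg2, which encodes PD-L2 (0.90), and Cd83 (0.90). Tnfrsf18 was most like Sdf4 (0.91), Pou2f2 (0.89) and Nfat5 (0.85). Sdf4 lies on the same strand just before Tnfrsf4, ending 232 bases from it. Tnfsf8 was most like Btla (0.89), an inhibitory receptor gene that itself binds a TNF receptor superfamily protein, B3gnt2 (0.89) and Srgn (0.88).

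Tnfsf11 was most like Cd200 (0.94), Gpm6b (0.90) and Lag3 (0.88), the first and last of which encode inhibitory surface proteins. Cd27 was most like Lck, the TCR-proximal kinase gene (0.95), Zdhhc18 (0.95) and Tcp11l2 (0.94), and Traf1 like Akap8l (0.95), Pnrc1 (0.94) and Gimap5 (0.94). Tnfrsf1b had the lowest values, with Casc3 at 0.84, Slamf1 at 0.82 and Map4k1 at 0.78. Among the 7 themselves r ran from -0.51 (Tnfrsf9 with Cd27) to 0.75 (Cd27 with Traf1).

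The partners of the 7 genes were measured in the same sums. Tnfrsf8, which encodes CD30, the receptor of the Tnfsf8 product, rose from 0.29 to 0.82 CPM on average (log2 difference 1.49 ± 0.33, SE); its call was lost without M9 replicate 1, C6M9 replicate 1 or C6M9 replicate 2 and with DESeq2. Cd70, the CD27 ligand gene, fell from 0.43 to 0.07 CPM (-2.58 ± 0.53, SE); this call held without M9 replicate 2 but not without any other library or with DESeq2. Tnfsf9, the 4-1BB ligand gene (-0.38), Tnf (-0.56) and Lta (-0.16), which encode ligands of TNF receptor 2, and Traf2 (0.13) did not pass. Tnfrsf11a, the RANK gene, had 3 UMIs over all T cells and Tnfsf18, the GITR ligand gene, also 3. OX40 and OX40 ligand genes, next in the family, differed by -3.06 (Tnfrsf4) and -3.27 (Tnfsf4) over all T cells. Within the TCR-activated-like class they differed by -3.61 and -1.95.

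Of 93 other genes of the pathway 78 were tested over all T cells. Their lists were TNF receptors, ligands, TRAF proteins and adaptors, NF-kB genes, and survival or NF-kB target genes. Of these 9 fell and 1, Tnfrsf8, rose, where 4.04% and 1.59% of the 13654 genes tested did (edgeR). The lists too were chosen with earlier results of these data known. The count that fell changed when a library was left out, as did the count of all genes called. The median log2 difference was -0.02 over 20 tested receptor genes, -0.42 over 13 ligand genes and -0.04 over 28 adaptor genes. It was -0.21 over 15 NF-kB genes and -0.41 over 12 survival or NF-kB target genes, against -0.02 over all genes. The 7 genes are among those counted in these medians. Tnfrsf13b, which encodes the BAFF and APRIL receptor TACI (-0.74), and Tank, which encodes a TRAF-binding adaptor (-0.45), fell; the Tank call was lost without C6M9 replicate 1 or 2. Rel, the c-Rel subunit gene (-0.72), fell with M9 at 89.9 and 70.5 CPM, and was not called without C6M9 replicate 1. Of the survival or NF-kB target genes Bcl2a1d (-1.16), Bcl2a1b (-0.80) and Cd83 (-1.26) fell. The Bcl2a1b call was lost without C6M9 replicate 1, and Cd83 was at -0.75 without M9 replicate 1. Cd83 is also a leading gene of the TCR-activated-like class. Bcl2a1b and Bcl2a1d are near-identical copies, so the split of UMIs between them is uncertain. Of 12 immunoglobulin family costimulator genes, 11 tested, Icos (-0.67) fell and none rose.

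**Figure D4:**
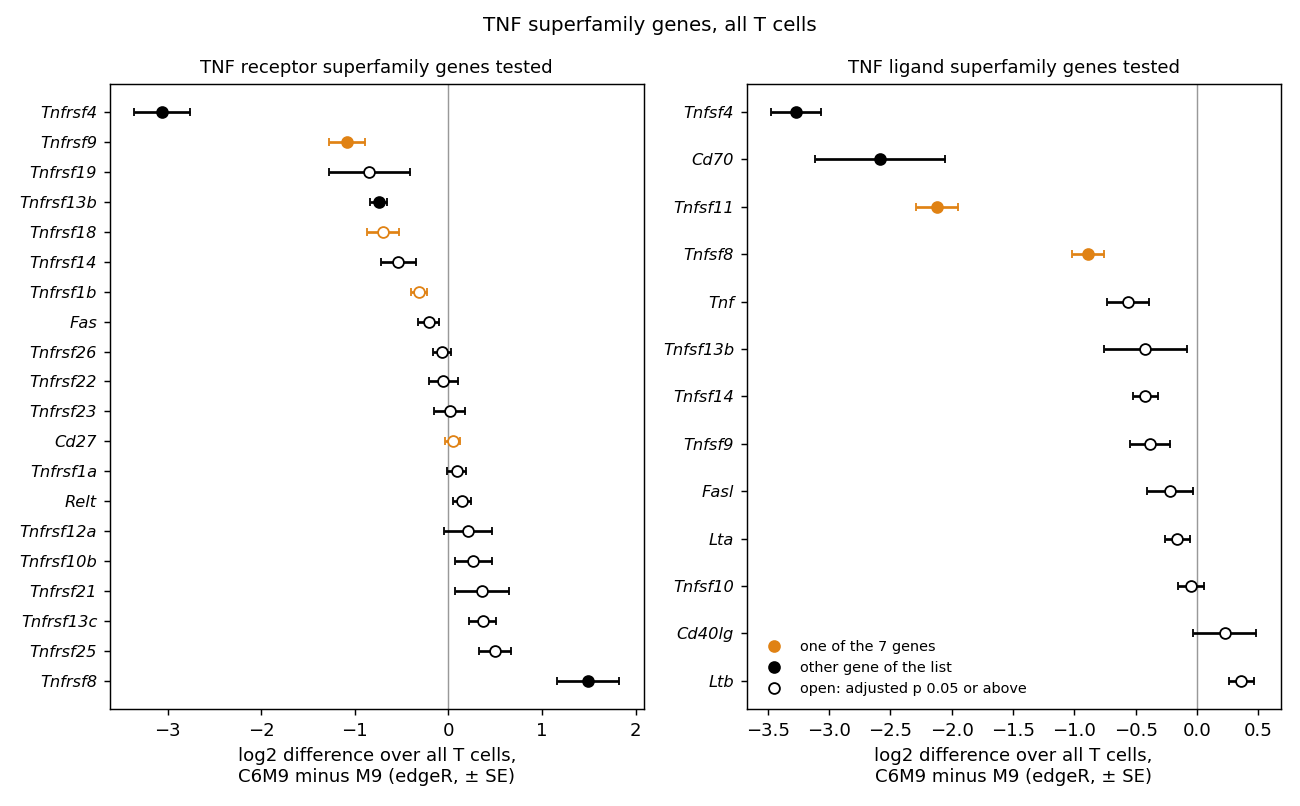
Log2 difference over all T cells (C6M9 minus M9, x axis, edgeR estimate ± SE) of each tested TNF receptor gene (left) and ligand gene (right), with the genes of this report in orange, others in black and filled circles where the adjusted p is under 0.05. Tnfsf11 and Tnfsf8 lie among the lowest ligand genes, and Tnfrsf9 is second lowest among receptors after Tnfrsf4.

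Genes listed as markers of other cells moved with the groups as well. Of 8 CD4 and regulatory T cell markers, a cell type that holds GITR and Tnfrsf1b at high level, 3 fell and none rose, with summed levels of 466 and 395 CPM in M9 and 208 and 245 CPM in C6M9. Most of that sum is Ikzf2 and Izumo1r, with 9216 to 21105 and 1056 to 6735 UMIs in a library; Foxp3 had 12 to 40 UMIs in a library. T cells with a Cd4 or Foxp3 UMI were 2.15 to 3.15% of a library, and without them Tnfrsf9 was at -1.07, Tnfrsf18 at -0.67, Tnfsf8 at -0.82 and Tnfsf11 at -2.08, with the same 3 genes called. Of 11 B cell markers Ighd and Ighm rose, with sums of 312 and 296 CPM in M9 and 351 and 379 CPM in C6M9. Of 8 NK and innate lymphoid markers Klrb1c and Eomes fell, and that list summed to 245 and 229 CPM in M9 and 147 and 144 in C6M9. Most of that sum is Eomes and Gata3, with 4854 to 12986 and 1620 to 3346 UMIs in a library. Ncr1 had 0 to 5, Fcer1g 10 to 42 and Tyrobp 20 to 47 UMIs in a library. Of 12 myeloid markers Cd68 fell. The sums of that whole list overlapped, at 102 and 78.1 CPM in M9 and 93.6 and 88.2 CPM in C6M9. The part of these markers in the results was not tested. No gamma delta T cell marker (6 listed) or stroma marker (7 listed) passed, and no red cell or platelet marker (5 listed) had enough counts. Without cluster 9, whose cells had many UMIs and of which M9 replicate 2 held 12, the same 3 genes fell, at -1.15, -0.83 and -2.14 for Tnfrsf9, Tnfsf8 and Tnfsf11. Both exclusions were chosen after seeing the data.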

How the data were processed

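Per the submitters' processing notes, the deposited UMI counts per gene and cell barcode were made by the authors with Cell Ranger 6.0.0 on mm10; the sources used here do not give the annotation release or intron counting. The members and gene lists were chosen with earlier results of these data known. Barcodes needed at least 500 genes, at least 1000 UMIs and a mitochondrial share of 10% or less (10324 of 11113 passed). Scrublet (scanpy 1.11.5) marked under 0.5% of each library, so the highest scores were left out at 0.8% per 1000 barcodes (277 cells), as were 124 B cell-like cells. Clusters came from 2000 variable genes without the TNF superfamily and TRAF lists, 30 principal components, 15 neighbours and Leiden resolution 0.6.

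UMIs were summed per library and per class, and C6M9 was set against M9 in edgeR 4.0.16 (R 4.3.3): TMM, filterByExpr and the two-sided quasi-likelihood test, Benjamini-Hochberg adjusted over all genes of a comparison. Levels are TMM-scaled CPM, except the equal class mix, which is scaled to total UMIs. The class by group test had terms for library, for class and for the interaction of class with group. Leaving out a library leaves 1 in its group, which is then assumed to vary like the other group. DESeq2 1.42.0, other scalings, filters and clusterings were alternatives. In the tests on other clusterings each cluster took the main class most common among its T cells. The named genes were the 7 members, the partners of members, OX40 and its ligand, up to 4 called genes per list and direction, and for each member the 3 with the highest r (mean of at least 10 CPM). The tests were tried on simulated counts. Gene positions came from GENCODE release M21 (mouse) through 32158 matched identifiers.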

Additional observations from a re-analysis of the deposited data

Results flagged for a closer look

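For 5 of the 7 genes the difference between C6M9 and M9 was not the same in all classes, by the edgeR test of the class and group product (6 classes, 2 libraries per group). The adjusted p was 5.57e-07 for Tnfrsf18 and 5.35e-06 for Tnfsf8, both lowest in TCR-activated-like cells. It was 0.0025 for Traf1 and 0.00282 for Tnfrsf9, the latter at -0.16 in TCR-activated-like cells and -0.88 in cluster 2 on the log2 scale. It was 0.0408 for Tnfsf11, whose difference was negative in all 6 classes.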

How the results depend on the processing

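The falls of Tnfsf8 and Tnfsf11 over all T cells kept their direction and call under every alternative with a test. Tnfrsf9 lost its call with the robust prior (-1.09), without TCR-activated-like cells (-0.77) and without C6M9 replicate 1; it was -0.40 in the equal class mix, where Tnfrsf1b was -0.43. Tnfrsf18 gained a call with all deposited barcodes (-0.69), doublets kept (-0.68), no low-count filter (-0.69), total UMIs alone (-0.77) and without cycling-like cells (-0.75). With total UMIs alone and without cycling-like cells 5 members fell, Tnfrsf1b was called (-0.39 and -0.37) and Cd27 was at -0.035 and -0.0035. These fits called 873 of 13654 and 1339 of 12983 genes, against 769 of 13654 in the main fit. The median gene moved by under 0.1 between scalings.

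Same-numbered libraries deviated with r = -0.06, so the numbers are not shown to pair. With a replicate block 4 members fell over all T cells, Tnfrsf18 among them (-0.67), and 2 in cluster 2. Of all genes, 840 of 13654 and 184 of 9713 were called there, in either direction. With the block 0 members fell in cycling-like and in interferon-like cells, where 38 of 11875 and 0 of 10166 genes were called. Tnfrsf9 in effector-like cells turned to -0.0095 with it. DESeq2 called 0 members in cluster 0 and in interferon-like cells, where edgeR gave 2 and 1. Of all genes DESeq2 called 50 of 16645 and 81 of 16357 there, and edgeR 62 of 10016 and 159 of 10166. At Leiden resolution 1.0 the count was 0 in cluster 0 and 2 in cycling-like cells, where 58 of 9986 and 163 of 11976 genes were called. Traf1 was then at -0.10 in cluster 2 and Tnfrsf9 at -0.049 in effector-like cells. With TNF genes in the clustering the counts were 0 in cluster 0 and interferon-like, 2 in cycling-like and 1 in effector-like cells. Genes called there numbered 3 of 9789, 110 of 9196, 154 of 11977 and 98 of 10323, in that order. Traf1 was then at -0.029 in cluster 2 and Tnfrsf9 at -0.085 in effector-like cells. With no filter 2 members fell in each of cluster 2, cycling-like and interferon-like cells, and Cd27 was 0.0039 in the last. Genes called there numbered 230 of 15680, 706 of 18211 and 376 of 16357, in that order.

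Leaving out 1 library at a time changed how many members fell, over all T cells and in every tested class but effector-like. It also changed how many varied between classes. The number of all genes called moved in the same fits, so these counts are not read as a trait of the members. Over all T cells Tnfrsf9 ran from -1.36 to -0.70, Tnfrsf18 from -0.96 to -0.34 and Traf1 from -0.39 to -0.038; other pathway genes that fell numbered 5 to 16 and that rose 0 to 3. Signs turned only among uncalled values: Cd27 in TCR-activated-like (-0.12 to 0.057), effector-like (-0.036 to 0.10) and interferon-like cells (-0.061 to 0.023); Tnfrsf18 in cluster 2 (-0.34 to 0.079), cycling-like (-0.48 to 0.10) and effector-like cells (-0.22 to 0.19); Traf1 in cluster 2 (-0.10 to 0.18), cycling-like (-0.18 to 0.29), effector-like (-0.092 to 0.15) and interferon-like cells (-0.14 to 0.072). They also turned for Tnfsf8 in cycling-like (-0.42 to 0.038), and for Tnfrsf9 (-0.43 to 0.46) and Tnfrsf1b (-0.30 to 0.23) in effector-like cells. The causes were not tested.

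Shares of cells moved with depth. The difference in percentage points at 5000 UMIs was -6.88 for Tnfrsf9, -6.69 for Tnfrsf18, -8.89 for Tnfsf8, -4.45 for Tnfsf11 and -2.73 for Tnfrsf1b, and not thinned -8.35 for Tnfrsf9, -7.22 for Tnfsf8, -10.5 for Tnfsf11 and -1.94 for Tnfrsf1b. For Cd27 it turned to 0.26 when not thinned and ran from -2.43 to 0.85 without 1 library.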
